A study of Homo sapiens with 9 samples.

Results

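Immune checkpoint ligands are surface proteins that tell T cells or phagocytes to stand down. The genes for 10 of them were followed here in HCA2, a line of human foreskin fibroblasts: CD274 (PD-L1), PDCD1LG2 (PD-L2), CD276 (B7-H3), C10orf54 (VISTA), PVR (CD155), CD47 and the butyrophilins BTN2A1, BTN2A2, BTN3A1 and BTN3A2. They were chosen by name, and the values of all transcripts of a gene were summed. All 10 were found among the 26196 genes of the deposited table, with 32 transcripts among 52741, and all 10 passed the filter of a mean of at least 0.5 FPKM that left 12763 genes for testing. FPKM are fragments per kilobase of transcript scaled to depth, so levels can be roughly compared between genes and between libraries. This scaling does not remove differences in RNA composition between libraries, and other scalings were run as alternatives.

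The study compared 3 groups of 3 libraries each, which were PD-L1-positive senescent cells, PD-L1-negative senescent cells and normal proliferating cells. Per the labels' protocols, both senescent groups received doxorubicin, which damages DNA, at 100 nM for 24 hours, followed by BI-2536, a PLK1 kinase inhibitor, at 100 nM, for 12 days in all, and were then sorted by surface PD-L1. The labels mark the normal cells as PD-L1-positive but do not say that they were sorted or that the replicates were separate cultures, so p-values measure the spread between these libraries of 1 line, which may be technical. Treatment and sort differ together between senescent and normal cells and cannot be told apart.

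PD-L1 and PD-L2 bind PD-1, the receptor that dampens activated T cells, and PD-L1 on cells outside the immune system is known to be induced by interferon-gamma through JAK kinases to the transcription factor IRF1. VISTA and B7-H3 belong to the same protein family. CD155 engages the inhibitory receptor TIGIT and the activating receptor CD226, CD47 binds SIRPA on macrophages as a signal against phagocytosis, and butyrophilins act on T cells, BTN2A1 and BTN3A1 together presenting phosphoantigen signals to a class of gamma delta T cells.

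The promoters of CD274 and C10orf54 are shown first, because these genes had the biggest log2 differences among the 10 members, in opposite directions. Each window is the 250 bases before the transcription start, taken from RefSeq on build GRCh38.p14, whereas the authors' files use hg19, and 7 of the 10 members had a window there. The CD274 window is chr9:5450292-5450541 on the plus strand and the C10orf54 window, listed by RefSeq under the gene's newer symbol VSIR, is chr10:71773521-71773770 on the minus strand. Capitals mark, in order for CD274, an overlapping pair of matches to the interferon-regulated repeat, GAAA and GAAA with any 2 bases between them, on the other strand, and the GC box GGGCGG; for C10orf54 they mark GC boxes on both strands.
CD274: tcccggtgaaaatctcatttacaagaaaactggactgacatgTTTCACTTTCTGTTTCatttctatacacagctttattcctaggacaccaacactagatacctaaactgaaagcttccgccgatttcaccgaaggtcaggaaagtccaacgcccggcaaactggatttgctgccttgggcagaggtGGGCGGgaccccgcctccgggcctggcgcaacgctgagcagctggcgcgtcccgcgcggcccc
C10orf54: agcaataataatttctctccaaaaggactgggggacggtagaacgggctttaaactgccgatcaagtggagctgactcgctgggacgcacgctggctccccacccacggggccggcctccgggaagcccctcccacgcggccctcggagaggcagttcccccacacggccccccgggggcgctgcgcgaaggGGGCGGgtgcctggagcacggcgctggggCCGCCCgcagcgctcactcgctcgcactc
Searched on both strands, the GAAA repeat occurred in 3.02% of the 35116 RefSeq windows of this length and GGGCGG in 42.6%. Among the 7 members with a window, CD274 alone held the GAAA repeat, 208 to 193 bases before the start. The E2F patterns TTTGGCGC and TTTCCCGC, present in 0.55% and 1.39% of all windows, had no match in a member's window. A match describes letters and is not a measured binding site.

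At the level of RNA the members covered a wide range. CD276 had the highest mean over the 9 libraries at 59.2 FPKM, followed by PVR at 24.5, CD47 at 19.0, BTN2A1 at 14.1, PDCD1LG2 at 13.3 and C10orf54 at 9.66 FPKM. BTN3A2 at 5.55, BTN3A1 at 5.40 and BTN2A2 at 4.27 FPKM were lower, and CD274, the gene of the sorted protein, was the lowest of the 10 at 2.09 FPKM. All 10 fibroblast markers passed the filter, and their summed level was 12010 to 13310 FPKM in PD-L1-positive, 13490 to 15430 FPKM in PD-L1-negative and 8849 to 11330 FPKM in normal libraries, without overlap. For 4 of these 10 markers every PD-L1-positive library lay below every PD-L1-negative one, and none passed the test between the fractions. The part of this in the ligand differences was not tested. By contrast, 14 of 16 leukocyte markers stayed under 0.5 FPKM in every library, with CD3D, CD8A and NKG7 at 0. Of the 5 melanocyte markers, DCT was at 0 and the sum was 10.8 to 12.1 FPKM in PD-L1-positive, 11.4 to 12.2 FPKM in PD-L1-negative and 4.86 to 8.81 FPKM in normal libraries. Most of that sum was MITF, at 10.2 ± 0.517 FPKM (SD, n = 6) in senescent and 6.79 ± 2.14 FPKM (SD, n = 3) in normal cells. In every library 3 of these 5 markers stayed under 0.5 FPKM, as did 4 of 5 endothelial and 5 of 6 keratinocyte markers. In bulk RNA, fewer cells expressing a gene and less RNA per cell cannot be told apart.

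The normal libraries differed from one another before any comparison. The summed level of 12 proliferation markers was 193 to 218 FPKM in PD-L1-positive cells, 135 to 184 FPKM in PD-L1-negative cells, and 1209, 732 and 340 FPKM in normal replicates 1, 2 and 3. Each result that turns on 1 of these libraries is therefore given without it as well. Depth, estimated from the smallest FPKM steps, was 12800000 to 18200000 fragments in PD-L1-positive, 13300000 to 15900000 in PD-L1-negative and 15700000 to 19600000 in normal libraries.

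**Figure D1:**
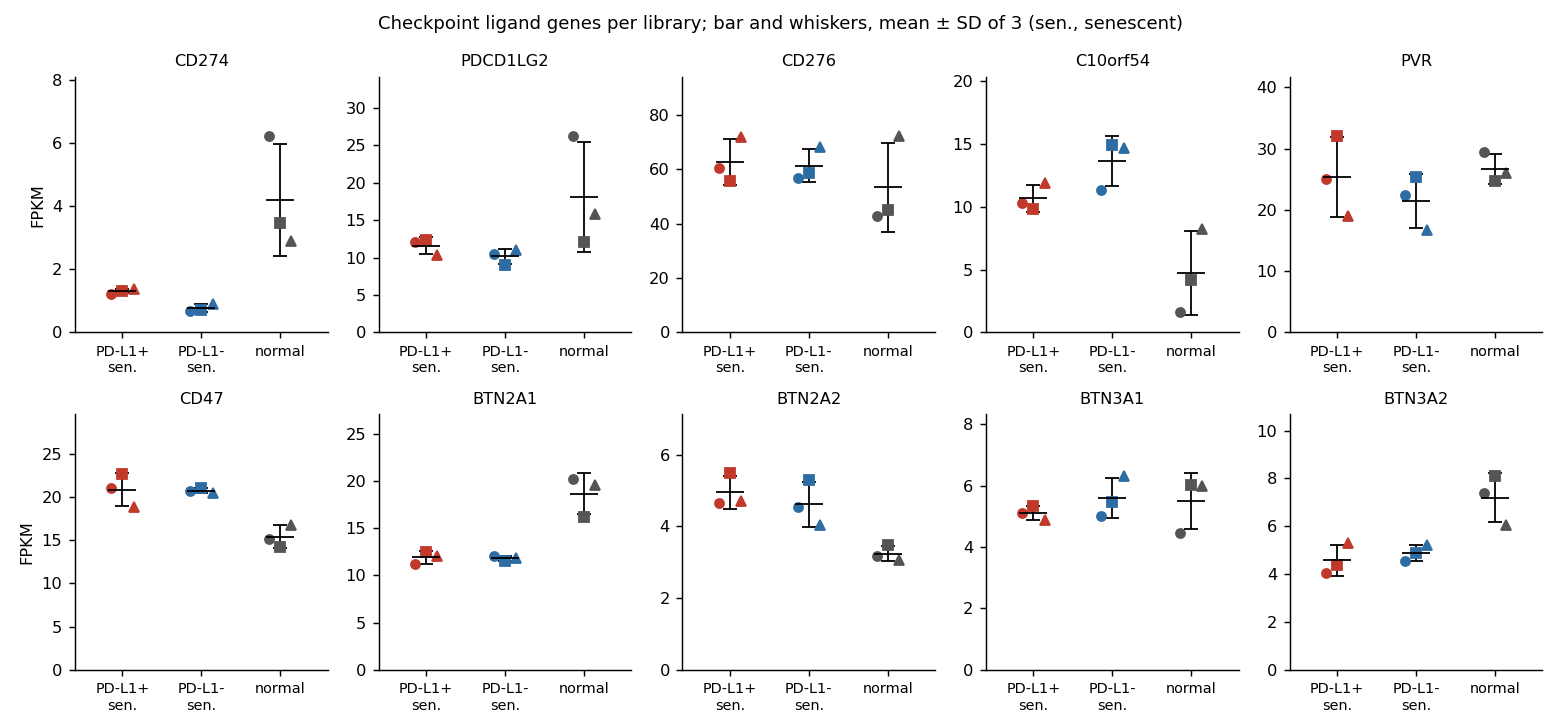
Level of the 10 ligand genes in FPKM (linear axes from 0) in every library; circles, squares and triangles are replicates 1, 2 and 3, and bars with whiskers are means ± SD of 3. CD274 and C10orf54 run in opposite directions between senescent and normal libraries. The PD-L1-positive and PD-L1-negative libraries do not overlap for 1 of the 10 genes, CD274, and for 9.42% of all genes tested.

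Senescent cells carried less CD274, PDCD1LG2, BTN2A1 and BTN3A2 RNA than normal cells and more C10orf54, CD47 and BTN2A2 RNA, while CD276, PVR and BTN3A1 did not pass the test. Differences were tested over all genes with limma on log2(FPKM + 0.5) with Benjamini-Hochberg adjustment, and adjusted p under 0.05 was the threshold. By this test 7 of the 10 members differed between the 6 senescent and 3 normal libraries, where 53.8% of all genes tested did. The senescent and normal libraries did not overlap for 6 of the 10, and for 48.7% of all genes. By the test, 3 members were higher (23.9% of all genes) and 4 lower (29.9% of all genes). The median log2 difference was -0.12 over the members and -0.04 over all genes tested. With so many genes called, these counts are no result about the ligands as a set. On this log2(FPKM + 0.5) scale the differences of low genes are understated.

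Between the sorted fractions no member passed. The count was 0 of 10 members and 0.0% of the 12763 genes tested by limma; at an unadjusted p under 0.05, 1 member (CD274) and 222 genes, or 1.74%, passed. The libraries of the 2 fractions did not overlap for 1 of the 10 members, again CD274, and for 9.42% of all genes tested.

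**Figure D2:**
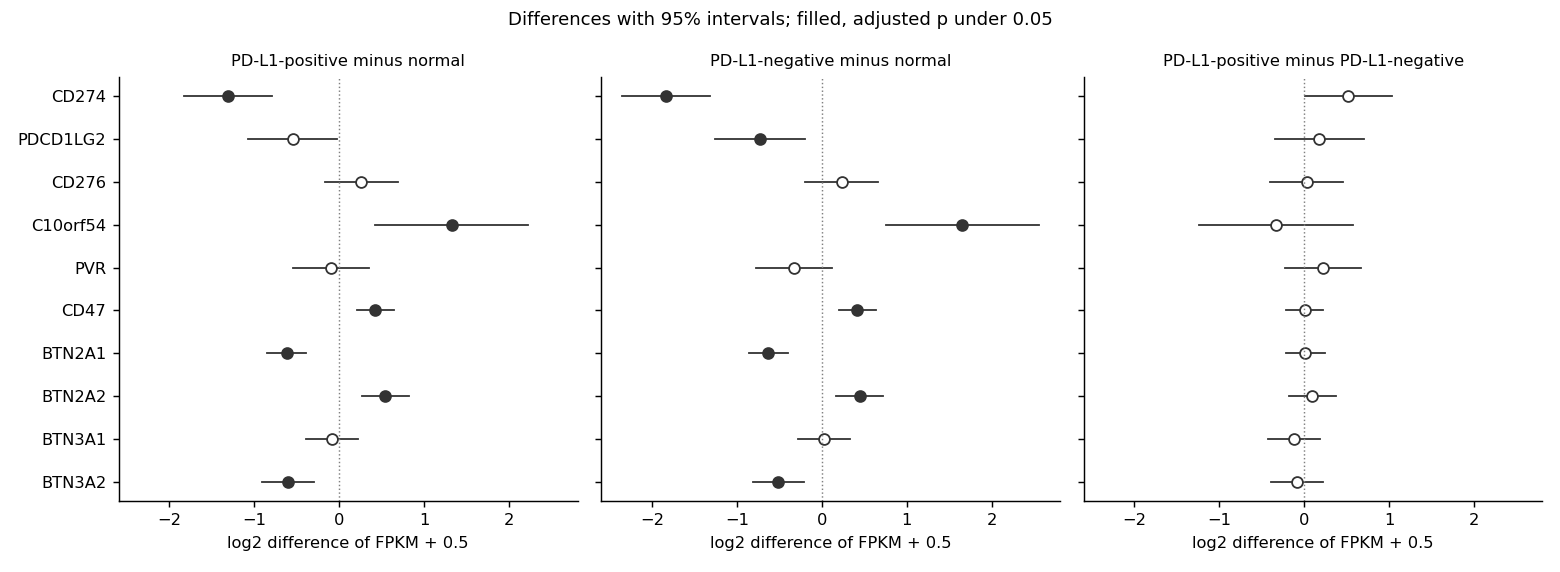
Log2 differences of FPKM + 0.5 with 95% confidence intervals for the 10 members in 3 comparisons from 1 limma fit over 9 libraries; filled circles have an adjusted p under 0.05. The left and middle panels, which share the normal libraries, have 6 and 7 filled circles, where 47.5% of all genes tested passed in each. The right panel, PD-L1-positive minus PD-L1-negative, has 0, where 0.0% of all genes tested passed.

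CD274 encodes the antigen of the sort. Its level was 1.23, 1.32 and 1.38 FPKM in PD-L1-positive cells, 0.677, 0.708 and 0.909 FPKM in PD-L1-negative cells, and 6.23, 3.48 and 2.89 FPKM in normal cells. The 3 groups did not overlap: every normal library lay above every PD-L1-positive one, and every PD-L1-positive one above every PD-L1-negative one. The PD-L1-positive mean was 1.71 times the PD-L1-negative mean, a log2 difference of 0.52 (SE 0.23, 95% interval 0.0059 to 1.04), with an unadjusted p of 0.0479 but an adjusted p of 1 by limma. The exact two-sided permutation test of the same values gave p = 0.1, the smallest that 3 against 3 libraries allow. The RNA thus followed the order of the sort labels in all 6 senescent libraries without passing the test over all genes.

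Against normal cells, CD274 fell by 1.57 on the log2 scale in senescent cells (SE 0.20, adjusted p = 0.000237 by limma), and the senescent mean was 0.247 times the normal mean. The exact two-sided permutation test over 6 and 3 libraries gave p = 0.0238, the smallest it can give. It counts the 2 fractions as separate replicates, although libraries with the same number may share a culture, which the labels do not say. For each fraction alone, the exact two-sided permutation test of 3 against 3 normal libraries gave p = 0.1, the smallest possible. The senescent mean weights the 2 fractions equally, whatever their shares before the sort. Leaving out normal replicate 1, the library with the most CD274, gave -1.28 (adjusted p = 0.00023 by limma). The fraction sorted for surface PD-L1 also had less CD274 RNA than the normal libraries, at -1.31 (SE 0.23, adjusted p = 0.00177 by limma).

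Of the 3 CD274 transcripts in the table, NM_014143, the full-length coding form, held 93.0% of the gene's mean. It measured 1.23, 1.32 and 1.38 FPKM in PD-L1-positive cells, 0.677, 0.558 and 0.335 FPKM in PD-L1-negative cells, and 6.10, 3.48 and 2.43 FPKM in normal cells. The gap between the fractions was wider for this transcript than for the gene, since NM_001267706, another coding form, was listed at 0.150 and 0.463 FPKM in PD-L1-negative replicates 2 and 3 and below 0.001 FPKM in the 3 PD-L1-positive libraries. The same form was at 0.465 FPKM in normal replicate 3. The noncoding NR_052005 was above 0.001 FPKM in 2 libraries, at 0.112 FPKM in PD-L1-negative replicate 3 and at 0.134 FPKM in normal replicate 1.

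In a limma fit over 19964 transcripts, NM_014143 had a log2 difference of 0.84 between PD-L1-positive and PD-L1-negative cells (SE 0.30, 95% interval 0.17 to 1.51, adjusted p = 1). Between senescent and normal cells it fell by 1.65 (SE 0.26, adjusted p = 0.00138 by limma). The estimated number of fragments behind NM_014143 was 60 to 82 in PD-L1-positive, 18 to 31 in PD-L1-negative and 130 to 408 in normal libraries, so how reads were split between the transcripts of the PD-L1-negative libraries rests on few fragments.

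**Figure D3:**
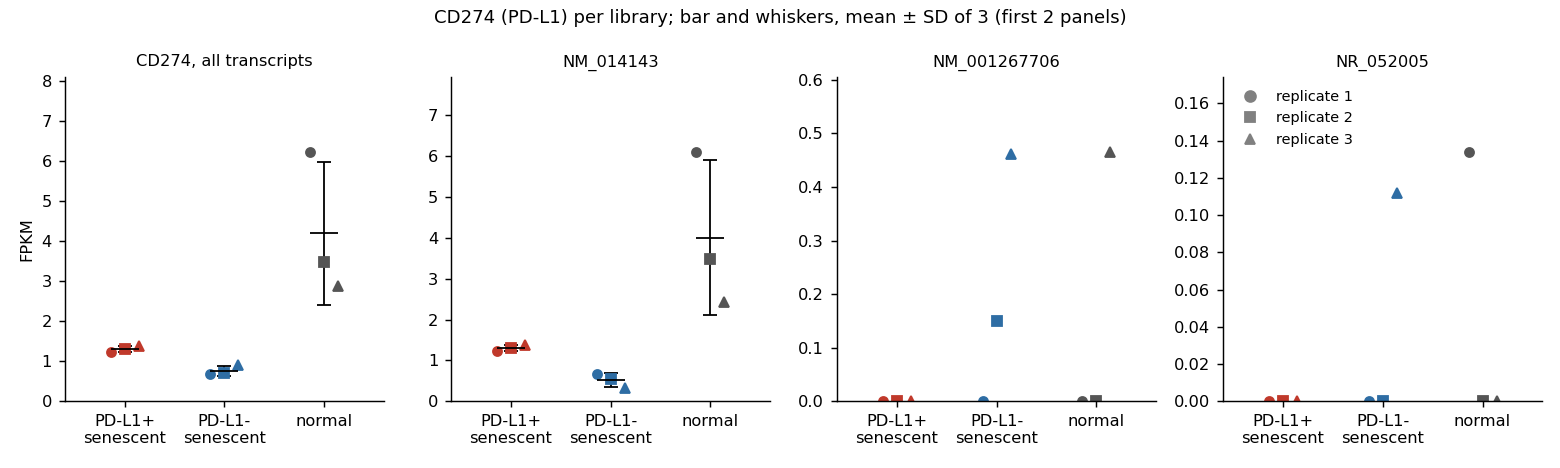
CD274 per library in FPKM (linear axes from 0, each panel with its own scale) as the gene sum and for its 3 transcripts; bars with whiskers in the first and second panels are means ± SD of 3. NM_014143 carries nearly all of the gene's signal, and NM_001267706 reaches 0.463 FPKM in PD-L1-negative and 0.465 FPKM in normal replicate 3.

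PDCD1LG2, the other PD-1 ligand, is the neighbour of CD274 on chromosome 9. Its level was 12.1, 12.4 and 10.3 FPKM in PD-L1-positive cells, 10.4, 9.05 and 11.0 FPKM in PD-L1-negative cells, and 26.2, 12.0 and 15.9 FPKM in normal cells. The PD-L1-negative libraries all lay under the normal ones, and PD-L1-positive libraries overlapped with them. The log2 difference between senescent and normal cells was -0.64 (SE 0.20, adjusted p = 0.024 by limma). The call depended on single libraries: without normal replicate 1 the difference was -0.34 (adjusted p = 0.0625), and without PD-L1-negative replicate 2 it was -0.60 (adjusted p = 0.0523). Between PD-L1-positive and PD-L1-negative cells it was 0.18 (95% interval -0.35 to 0.70).

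The receptor for both ligands, PDCD1, was listed at 0 in all 9 libraries. RGMB, a partner that binds PD-L2, averaged 58.8 ± 3.15 FPKM (SD, n = 6) in senescent and 79.9 ± 36.4 FPKM (SD, n = 3) in normal cells, with an adjusted p of 0.231 by limma.

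C10orf54 encodes VISTA, which acts as both ligand and receptor in T cell inhibition. Its level was 10.3, 9.80 and 11.9 FPKM in PD-L1-positive cells, 11.3, 14.9 and 14.6 FPKM in PD-L1-negative cells, and 1.65, 4.18 and 8.26 FPKM in normal cells. All 6 senescent libraries were higher than all normal libraries, and the normal libraries themselves spread widely. The senescent mean was 2.59 times the normal mean, a log2 difference of 1.49 (SE 0.35, adjusted p = 0.00577 by limma), the reverse of CD274. Without normal replicate 1 the difference was 0.96 (adjusted p = 0.00721), and without normal replicate 3 it was 1.98 (adjusted p = 0.000256).

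PD-L1-positive and PD-L1-negative libraries overlapped for C10orf54, with a log2 difference of -0.33 between PD-L1-positive and PD-L1-negative cells (95% interval -1.24 to 0.57). Against normal cells the difference was 1.32 in PD-L1-positive cells (adjusted p = 0.0232 by limma) and 1.66 in PD-L1-negative cells (adjusted p = 0.00851 by limma). Of these, the PD-L1-positive call was lost in 5 of 20 alternative settings, which were the fit of only the libraries compared (adjusted p = 0.0576 by limma) and those without normal replicate 2 (0.0556) or without PD-L1-positive replicate 1 (0.0556), 2 (0.0512) or 3 (0.0665).

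VISTA is known mainly from myeloid cells. The summed level of the 16 leukocyte markers was 57.2 to 68.0 FPKM in PD-L1-positive, 54.4 to 63.5 FPKM in PD-L1-negative and 32.7 to 35.1 FPKM in normal libraries. Nearly all of it was CD68, a lysosomal protein that fibroblasts also make, at 60.2 ± 5.42 FPKM (SD, n = 6) in senescent and 33.1 ± 1.47 FPKM (SD, n = 3) in normal cells. CD14 was 0.581 to 1.33 FPKM in PD-L1-positive, 0.979 to 1.13 FPKM in PD-L1-negative and 0.405 to 0.779 FPKM in normal libraries. CD68 and CD14 were both called higher in PD-L1-negative than in normal cells by limma. Between senescent and normal cells CD14 had a log2 difference of 0.50 (adjusted p = 0.0535 by limma). The markers other than CD68 and CD14 stayed under 0.5 FPKM in every library. Which cells the C10orf54 RNA came from was not tested.

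Over the normal libraries, CD274 was highest and C10orf54 lowest in replicate 1, which had the highest sum of proliferation markers, and the order was reversed in replicate 3. All 12 markers were lower in senescent than in normal cells by limma, as were 29.9% of all genes tested. Between the fractions, the mean of 11 of 12 was higher in PD-L1-positive than in PD-L1-negative cells and the libraries did not overlap for 7 of 12, against 9.42% of all genes tested, though none passed the test. The part of proliferation in the CD274 and C10orf54 differences was not tested.

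**Figure D4:**
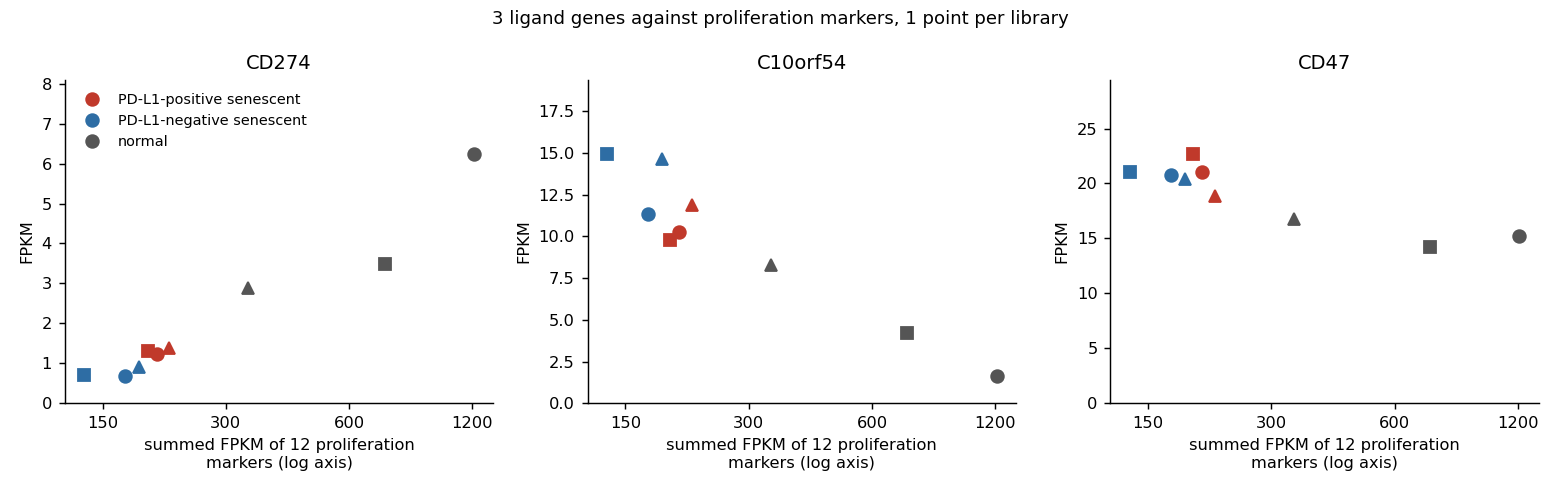
CD274, C10orf54 and CD47 in FPKM (linear axis from 0) against the summed FPKM of 12 proliferation markers (log axis), with 1 point per library and circles, squares and triangles for replicates 1, 2 and 3. Normal libraries spread from 340 to 1209 FPKM on the horizontal axis, with CD274 from 2.89 to 6.23 FPKM and C10orf54 from 8.26 down to 1.65 FPKM.

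CD276, the most abundant member, encodes B7-H3, a B7-family protein whose receptor is debated. Its level was 60.6, 55.6 and 71.9 FPKM in PD-L1-positive cells, 56.9, 58.8 and 68.3 FPKM in PD-L1-negative cells, and 43.0, 45.1 and 72.3 FPKM in normal cells. Normal replicate 3 was as high as the highest senescent libraries, and the groups overlapped. The log2 difference between senescent and normal cells was 0.25 (95% interval -0.12 to 0.62, adjusted p = 0.231 by limma), but 0.48 without normal replicate 3 (adjusted p = 0.00601). Without that library CD276 also passed in PD-L1-positive (adjusted p = 0.0101) and PD-L1-negative cells (adjusted p = 0.0131) against normal cells by limma. Between PD-L1-positive and PD-L1-negative cells it was 0.03 (95% interval -0.40 to 0.45).

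PVR encodes CD155, the ligand of TIGIT, CD226 and CD96. Its level was 25.1, 32.0 and 19.0 FPKM in PD-L1-positive cells, 22.4, 25.4 and 16.7 FPKM in PD-L1-negative cells, and 29.4, 24.7 and 26.0 FPKM in normal cells. All groups overlapped, and within each senescent fraction replicate 2 was the highest and replicate 3 the lowest. The log2 difference was -0.21 between senescent and normal cells (95% interval -0.60 to 0.18, adjusted p = 0.324 by limma) and 0.22 between PD-L1-positive and PD-L1-negative cells (95% interval -0.22 to 0.67). PVRL2, a related nectin that also binds TIGIT, averaged 44.2 ± 3.98 FPKM (SD, n = 6) in senescent and 46.6 ± 9.69 FPKM (SD, n = 3) in normal cells.

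CD47, the phagocytosis signal, was 21.0, 22.6 and 18.9 FPKM in PD-L1-positive cells, 20.7, 21.0 and 20.4 FPKM in PD-L1-negative cells, and 15.2, 14.2 and 16.8 FPKM in normal cells. All 6 senescent libraries lay above all normal libraries, with little spread inside any group. The senescent mean was 1.35 times the normal mean, a log2 difference of 0.42 (SE 0.08, adjusted p = 0.00247 by limma). The 2 sorted fractions were close, at 0.0046 on the log2 scale (95% interval -0.21 to 0.22). SIRPA, its receptor on phagocytes, was itself detected in the fibroblasts at 61.0 ± 5.10 FPKM (SD, n = 6) in senescent and 39.7 ± 10.3 FPKM (SD, n = 3) in normal cells, a log2 difference of 0.64 (adjusted p = 0.00455 by limma). THBS1, a secreted ligand of CD47, averaged 1152 ± 202 FPKM (SD, n = 6) in senescent and 1262 ± 466 FPKM (SD, n = 3) in normal cells, with an adjusted p of 0.744 by limma.

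The 4 butyrophilins of the set, with BTN3A3, are 5 consecutive protein-coding genes on chromosome 6, in the order BTN3A2, BTN2A2, BTN3A1, BTN3A3 and BTN2A1, and they did not move as a block. BTN2A1, which binds the T cell receptor of a gamma delta T cell class, was 11.2, 12.5 and 12.1 FPKM in PD-L1-positive cells, 12.0, 11.6 and 11.9 FPKM in PD-L1-negative cells, and 20.2, 16.2 and 19.6 FPKM in normal cells. Both fractions lay under every normal library. The log2 difference between senescent and normal cells was -0.63 (SE 0.09, adjusted p = 0.000413 by limma).

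BTN2A2, described in mice as an inhibitor of T cell activation, went the other way. It was 4.65, 5.48 and 4.72 FPKM in PD-L1-positive cells, 4.53, 5.28 and 4.04 FPKM in PD-L1-negative cells, and 3.17, 3.48 and 3.07 FPKM in normal cells. No senescent library was as low as a normal one. The log2 difference between senescent and normal cells was 0.49 (SE 0.11, adjusted p = 0.00376 by limma).

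BTN3A1, which senses phosphoantigen inside the cell, was 5.11, 5.33 and 4.88 FPKM in PD-L1-positive cells, 5.01, 5.47 and 6.32 FPKM in PD-L1-negative cells, and 4.45, 6.04 and 6.001 FPKM in normal cells. The groups overlapped throughout. The log2 difference between senescent and normal cells was -0.03 (95% interval -0.29 to 0.24, adjusted p = 0.86 by limma).

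BTN3A2, a relative that lacks the phosphoantigen-sensing domain, was 4.04, 4.37 and 5.31 FPKM in PD-L1-positive cells, 4.54, 4.88 and 5.21 FPKM in PD-L1-negative cells, and 7.41, 8.08 and 6.07 FPKM in normal cells. All senescent libraries were lower than all normal ones, by a log2 difference of -0.55 (SE 0.12, adjusted p = 0.00353 by limma). BTN3A3, the family member outside the set, averaged 6.33 ± 0.476 FPKM (SD, n = 6) in senescent and 3.91 ± 1.11 FPKM (SD, n = 3) in normal cells, a log2 difference of 0.66 (adjusted p = 0.005 by limma).

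These paralogs share sequence, which makes the split of reads between them uncertain. Of the 50-base words of the main BTN3A2 transcript, 17.1% also occur in that of BTN3A3 and 9.67% in that of BTN3A1, and 5.36% of those of BTN2A1 occur in BTN2A2. The main transcripts of CD274 and PDCD1LG2 share 0.0% of such words. The share of a gene's mean held by its main transcript was 47.7% for BTN3A2, 55.1% for BTN2A2, 70.3% for BTN3A1 and 73.0% for BTN2A1. It was 49.0% for PVR, 82.0% for CD276 and 96.7% for CD47. Between PD-L1-positive and PD-L1-negative cells the log2 differences of the 4 butyrophilins were 0.01 for BTN2A1, 0.09 for BTN2A2, -0.12 for BTN3A1 and -0.09 for BTN3A2. These are gene sums. The main BTN2A2 transcript was 2.83 to 3.71 FPKM in PD-L1-positive and 2.14 to 2.54 FPKM in PD-L1-negative libraries. That of BTN3A2 was 1.60 to 1.73 and 1.99 to 3.49 FPKM. Those of BTN2A1 and BTN3A1 overlapped between the fractions. No test of these transcripts is given.

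Each fraction was also set against the same 3 normal libraries, so these comparisons share controls. Against normal cells, 6 of 10 members passed in PD-L1-positive cells, where 47.5% of all genes did, with 3 higher (21.1% of all genes) and 3 lower (26.3%). In PD-L1-negative cells 7 of 10 members passed, where 47.5% of all genes did, with 3 higher (21.0%) and 4 lower (26.6%). PDCD1LG2 made the difference, at -0.55 in PD-L1-positive cells (adjusted p = 0.0804 by limma) and -0.73 in PD-L1-negative cells (adjusted p = 0.0291 by limma); its difference between the fractions was not called. The PD-L1-negative call was lost in 6 of 20 alternatives, 3 of which left out a PD-L1-negative library (adjusted p from 0.0506 to 0.0937 by limma), and the PD-L1-positive difference passed without normal replicate 2 (adjusted p = 0.0181). The other called members had the same direction in both fractions.

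Genes of the route that induces PD-L1 moved both ways in senescent cells. Of 19 genes tested from 22 listed for interferon signalling to CD274, 8 were higher (23.9% of all genes tested) and 4 lower (29.9% of all genes tested) by limma. The lower ones, some of them named here after their values were seen, were the receptor-associated kinases JAK2, at -0.38, and TYK2, at -0.70 on the log2 scale, the phosphatase PTPN2, at -0.23, and GBP1. IRF1, the transcription factor that acts on the CD274 promoter, averaged 24.1 ± 5.65 FPKM (SD, n = 6) in senescent and 5.87 ± 1.75 FPKM (SD, n = 3) in normal cells, a log2 difference of 1.96 (adjusted p = 0.000113 by limma). IFNGR1, a subunit of the interferon-gamma receptor, rose by 0.76 (adjusted p = 0.000726 by limma).

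Members of this list that report on the response did not share 1 direction. CXCL10, an interferon-induced chemokine, averaged 0.841 ± 0.295 FPKM (SD, n = 6) in senescent and 0.0727 ± 0.0263 FPKM (SD, n = 3) in normal cells, a log2 difference of 1.20 (adjusted p = 0.00125 by limma). SOCS3, a feedback inhibitor of cytokine signalling, rose by 0.98 (adjusted p = 0.000664 by limma). GBP1, an interferon-induced GTPase, averaged 5.23 ± 0.4995 FPKM (SD, n = 6) in senescent and 21.7 ± 8.71 FPKM (SD, n = 3) in normal cells, a log2 difference of -1.88 (adjusted p = 0.000119 by limma). None of the 19 genes passed between PD-L1-positive and PD-L1-negative cells.

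**Figure D5:**
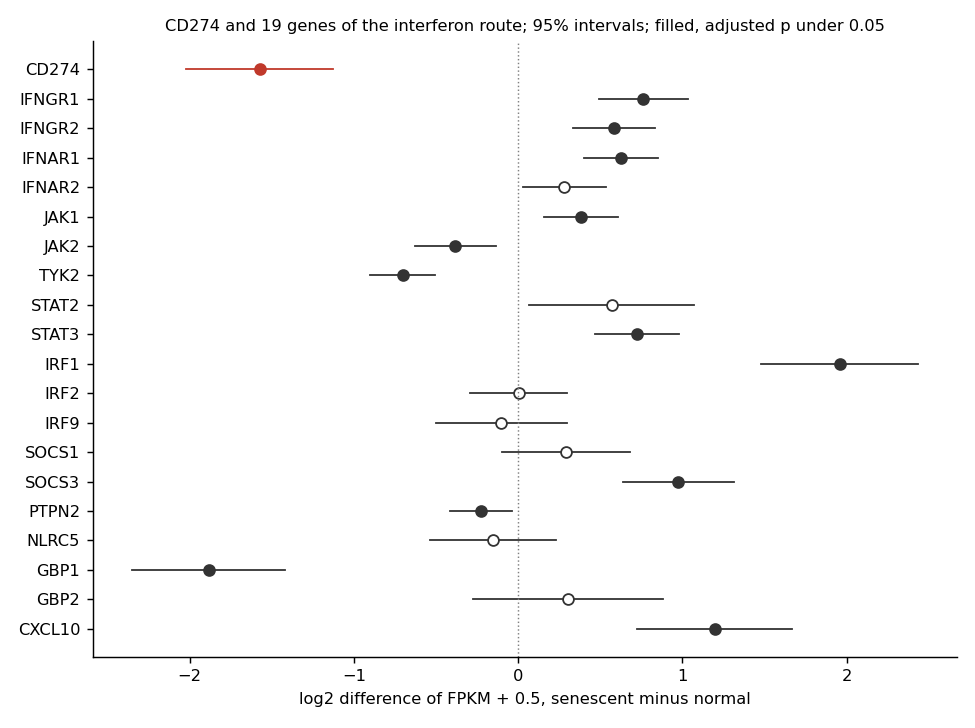
Log2 difference of FPKM + 0.5 between senescent and normal cells, with 95% confidence intervals, for CD274 and 19 tested genes of the interferon route; filled circles have an adjusted p under 0.05. CD274 at -1.57 and GBP1 at -1.88 lie to the left, and IRF1 at 1.96 and CXCL10 at 1.20 to the right.

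Of 19 other transcription factors described as acting on CD274, 6 were higher and 6 lower in senescent cells, where 23.9% of all genes tested were higher and 29.9% lower. TEAD4, a partner of YAP1, averaged 3.93 ± 0.631 FPKM (SD, n = 6) in senescent and 13.7 ± 0.840 FPKM (SD, n = 3) in normal cells, a log2 difference of -1.69 (adjusted p = 1.85e-05 by limma). BCL3, JUN, SMAD3, MYC and WWTR1 rose, by 1.10, 0.90, 0.78, 0.78 and 0.76 on the log2 scale.

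Of 26 tested genes whose products handle PD-L1 protein, 8 were higher and 9 lower in senescent cells, beside the same 23.9% and 29.9% of all genes tested. CCND1, the cyclin of the CDK4 kinase, averaged 602 ± 68.4 FPKM (SD, n = 6) in senescent and 205 ± 86.9 FPKM (SD, n = 3) in normal cells, a log2 difference of 1.62 (adjusted p = 0.000272 by limma). ZDHHC9, a palmitoyl transferase, rose by 0.87, BTRC, a ubiquitin ligase adaptor, by 0.66, CMTM4, a membrane partner of PD-L1, by 0.62, and ADAM10, a protease that sheds surface proteins, by 0.56. STT3A, an enzyme of N-glycosylation, fell by 0.61 (adjusted p = 0.000175 by limma).

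Of 34 other genes listed as checkpoint ligands or related immune regulators, 14 were expressed enough to test. Of these, 5 were higher and 2 lower in senescent cells, beside 23.9% and 29.9% of all genes tested. The list also held receptors and enzymes, so its counts do not refer to inhibitory ligands alone. HLA-E, the ligand of the inhibitory NKG2A receptor, averaged 127 ± 12.1 FPKM (SD, n = 6) in senescent and 58.1 ± 9.23 FPKM (SD, n = 3) in normal cells, a log2 difference of 1.13 (adjusted p = 7.51e-05 by limma). LGALS3, a galectin, and CD83 rose by 0.64 and 1.07, while PVRL3, a nectin, and TNFSF9, the ligand of an activating T cell receptor, fell by 0.37 and 0.41. No gene of these lists or of the 7 tested receptors and partners passed between the fractions. Over all genes tested, 53.8% were called between senescent and normal cells.

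The genes whose pattern was most like that of CD274 were PINX1, a telomerase inhibitor, UBE2C, a mitotic ubiquitin-conjugating enzyme, FABP5, a fatty acid carrier, ATP8B3, a flippase, and CDK2, a cell cycle kinase. Their Pearson r with CD274 on the log2(FPKM + 0.5) scale was 0.992, 0.992, 0.989, 0.988 and 0.987 over 9 libraries, and 0.922, 0.969, 0.967, 0.934 and 0.878 over the 6 senescent libraries. UBE2C, for example, was 21.5, 19.9 and 23.9 FPKM in PD-L1-positive cells, 11.8, 11.1 and 12.8 FPKM in PD-L1-negative cells, and 187, 80.5 and 44.5 FPKM in normal cells. As with CD274, the 3 groups did not overlap, but UBE2C was picked for its likeness to CD274 in these same libraries. The points share the separation of normal from senescent libraries, and the correlations are a description. Among the members, r with CD274 over the 9 libraries ran from 0.913 for BTN2A1 and 0.868 for PDCD1LG2 to -0.876 for CD47 and -0.932 for C10orf54; over the 6 senescent libraries these were 0.194, 0.632, -0.073 and -0.587.

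The authors' deposited table of iRegulon, a program that ranks motifs and ChIP-seq tracks by their enrichment near the genes of an input list, held 223 valid input genes, 112 motifs and 16 tracks. How those genes were chosen is not stated in the table. The authors' deposited table listed CD274 as a target in 3 of these 128 entries: an E2F motif at rank 11 with a normalized enrichment score of 9.43, a PITX motif at rank 98 with a score of 3.29, and an E2F1 ChIP-seq track at rank 15 with a score of 3.41. An E2F factor was named in 52 of the 128 entries of the authors' deposited table. None of the other 9 members was among its 210 distinct targets. A gene outside the input list cannot be a target, and whether these 9 were in that list was not examined. Nothing about them follows from their absence.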

How the data were processed

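ISOGEN-extracted RNA was enriched for polyA and made into strand-keeping libraries, per the labels' protocols. The submitters' processing notes name STAR 2.5.2a, HTSeq 0.11.2, DESeq2 1.22.2 and hg19. The authors deposited FPKM per RefSeq transcript; the program that made them is not given in the sources used here. The authors also deposited iRegulon enrichment scores.

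FPKM were summed per gene. Genes with a mean of at least 0.5 FPKM entered 1 limma 3.58.1 fit (R 4.3.3, intensity trend, 6 residual degrees of freedom) on log2(FPKM + 0.5), with all 9 libraries and a mean per group; the fit was tested on simulated data. CD274 was also compared by exact permutation (scipy 1.17.1). Depth was estimated from the smallest FPKM steps of 7210 genes of 1500 to 6000 bases, with GENCODE lengths on another build than the files' less 225 bases, and is approximate; fragments are not independent molecules.

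The members and lists were chosen with earlier results of these data known. Up to 6 called genes per list, with the largest differences between senescent and normal cells, were named, along with partners of members, and the 5 genes most correlated with CD274. Alternatives covered pseudocount, filter, scaling, transcripts summed, trend, weights, a replicate block and each library left out. 1 gene of the interferon list is not reported here.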

Additional observations from a re-analysis of the deposited data

How the results depend on the processing

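The count of genes called between PD-L1-positive and PD-L1-negative cells, 0, became 1 with a pseudocount of 0.1, 2 with no filter and 1 with only the libraries compared, and ran from 0 to 3 when single libraries were left out (3 without PD-L1-positive replicate 2, and 1 without normal replicate 3, PD-L1-negative replicate 1 or PD-L1-positive replicate 3); no member was called in any of the 20 alternatives. CD274 kept its direction and its side of the threshold in all 4 comparisons under every alternative run. The settings of trend, weights and block can change only the error of a difference, not its direction. Leaving out normal replicate 1 moved PDCD1LG2 and leaving out normal replicate 3 moved CD276, as given with those genes. BTN3A2 lost its call in PD-L1-negative against normal cells without normal replicate 2 (adjusted p = 0.0545 by limma) or PD-L1-negative replicate 1 (0.0508).

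Small differences that were never called turned in sign. Between PD-L1-positive and PD-L1-negative cells CD47 was -0.0012 under median-of-ratios scaling and -0.055 to 0.072 with single libraries left out, BTN2A1 -0.0041 under quantile normalization and -0.025 to 0.056, and CD276 -0.075 to 0.11. BTN3A1 was 0.029 under quantile normalization and -0.16 to 0.041 in senescent minus normal cells, and -0.10 to 0.10 in PD-L1-negative minus normal cells. PVR was 0.010 under quantile normalization and -0.28 to 0.088 in PD-L1-positive minus normal cells. The cause was not tested.

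With a replicate block, 0 genes were called between the fractions, 7155 between senescent and normal cells, 6330 in PD-L1-positive and 6352 in PD-L1-negative against normal cells, and no member's call changed. Deviations of libraries with the same number correlated at -0.011 to 0.457, over 0.1 in 4 of 9 pairs. Between the 2 fractions alone, libraries with the same number were at 0.094, 0.223 and 0.457. Those with different numbers were at -0.307 to 0.141. As the labels give the numbers no meaning and not every pair was over 0.1, the libraries were not treated as paired in the reported fit. In the data, 7 of 9 libraries correlated best with their own number, a hint that libraries with the same number share something. As each number occurs once in every group, the block cannot change a difference between groups, only its error. C10orf54 at -0.33 and PVR at 0.22 between PD-L1-positive and PD-L1-negative cells were therefore the same with the block, where both had an adjusted p of 1 by limma. Compared number by number, CD274, PVR and BTN2A2 were higher and C10orf54 lower in the PD-L1-positive library each time. The other members went both ways. How many of all genes do so was not tested. A fit of only the libraries compared is the same as the reported one for senescent against normal cells. Depth limits CD274 in the PD-L1-negative libraries most, with an estimated 18 to 31 fragments of its main transcript.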
